A study of Sus scrofa with 8 samples.

Results

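Transfer RNA (tRNA) genes of the pig were examined for peaks of H3K4me3, H3K27ac and CTCF in pig embryonic fibroblasts (PEFs). The members were the genes that RefSeq annotates with the biotype tRNA on chromosomes 1 to 18 and X of Sscrofa11.1, which were 448 of 28077 genes. A gene was counted for a mark when a peak lay within 1 kb of it in both replicates. Genes over 5 kb from the nearest transcription start site (TSS) of a protein-coding gene are called far (356 genes), and the others near (92 genes). Genes with another tRNA gene within 10 kb are called clustered, and the others single, which gave 246 far clustered, 110 far single, 46 near clustered and 46 near single genes. None of these classes was chosen from the peaks.

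The PEFs came from fetuses of Large White pigs at 35 days and were cultured without treatment. In ChIP-seq, an antibody pulls down a modified histone or a protein with the DNA it binds, and this DNA is sequenced. H3K4me3 marks promoters, H3K27ac marks active promoters and enhancers, and CTCF is a DNA-binding protein that anchors chromatin loops. There were 2 libraries for each, 6 in all, with peaks called in each library separately, and the sources used here do not say whether replicates came from different fetuses. The lists held 37932 and 43516 peaks for H3K4me3, 74983 and 81164 for H3K27ac, and 40289 and 44682 for CTCF. They carry no read counts, and the depth behind a peak was not taken into account here. Of 13 fibroblast marker genes fixed for this check, 13 had H3K4me3 and 13 H3K27ac at the TSS in both replicates. Of 11 markers of other cell types, 4 had H3K4me3, and no H3K27ac was listed at any of them.

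tRNA genes are transcribed by RNA polymerase III, not by the polymerase that makes messenger RNA. Their promoter lies inside the gene. The factor TFIIIC binds sequences called the A box and the B box within the transcribed part and places TFIIIB just upstream, and TFIIIB recruits the polymerase, which stops at a short run of T. Active tRNA genes are known to lie in open chromatin that carries marks also found at the promoters of messenger RNA genes. Mammalian genomes hold several genes for most anticodons, many of them in clusters, and hold many copies of repeats that arose from tRNA genes.

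The following sequences are those on which the comparisons between genes turn. They are RefSeq Sscrofa11.1 sequences written 5′ to 3′, and capitals mark the core of the B box, searched on the strand of the gene as GTTCGANNC or GTTCAANNC, of which the first form holds a CpG. The first 2 sequences are shared by several identical genes, of which some had peaks and others none, and each is given at 1 of its places. The 4 glutamate genes are 2 with H3K4me3 and 2 without, the 3 cysteine genes are 2 with H3K4me3 and 1 without, and the initiator methionine gene has neither form of the core. All but the first 2 were picked after their values were seen.
TRNAD-GUC, chr4:88964920-88964991, minus strand: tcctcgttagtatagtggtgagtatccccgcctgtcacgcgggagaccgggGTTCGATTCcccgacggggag
TRNAG-UCC, chr4:88965885-88965956, minus strand: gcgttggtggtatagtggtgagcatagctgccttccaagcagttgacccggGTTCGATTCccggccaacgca
TRNAE-UUC with H3K4me3, chr1:141310254-141310325, minus strand: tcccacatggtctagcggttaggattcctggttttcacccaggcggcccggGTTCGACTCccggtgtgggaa
TRNAE-UUC with H3K4me3, chr4:99278570-99278641, minus strand: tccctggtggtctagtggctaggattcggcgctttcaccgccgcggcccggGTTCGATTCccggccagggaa
TRNAE-UUC without H3K4me3, chr6:70669626-70669697, plus strand: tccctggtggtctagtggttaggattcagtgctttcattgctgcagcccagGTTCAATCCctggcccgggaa
TRNAE-UUC without H3K4me3, chr1:23377393-23377464, minus strand: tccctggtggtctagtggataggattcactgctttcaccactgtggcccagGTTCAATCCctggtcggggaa
TRNAC-GCA with H3K4me3, chr12:23070616-23070687, plus strand: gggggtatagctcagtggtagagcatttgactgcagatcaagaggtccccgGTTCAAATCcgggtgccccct
TRNAC-GCA with H3K4me3, chr18:55724072-55724143, minus strand: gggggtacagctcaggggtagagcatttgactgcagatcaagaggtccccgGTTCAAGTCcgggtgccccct
TRNAC-GCA without H3K4me3, chr18:55576718-55576789, plus strand: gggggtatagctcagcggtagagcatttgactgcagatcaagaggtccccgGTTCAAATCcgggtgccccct
TRNAM-CAU, initiator, chr7:21505542-21505613, minus strand: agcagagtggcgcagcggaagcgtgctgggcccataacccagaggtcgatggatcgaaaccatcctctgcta

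The tRNA genes measured between 71 and 107 bp, with a median of 73 bp, and 28 of them had an intron. They were spread unevenly, with 143 on chromosome 7, 70 on chromosome 4 and 44 on chromosome 12. Of the 448 genes, 336 lay between other genes, 65 in an intron of a protein-coding gene, 23 in an intron of another gene, and 24 overlapped an exon. The 448 genes had 274 distinct sequences, since 227 genes fell into 53 sets of 2 or more identical genes.

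An H3K4me3 peak lay within 1 kb of most tRNA genes, also of those far from any protein-coding TSS. In the 356 far genes, 203 had an H3K4me3 peak within 1 kb in replicate 1 and 203 in replicate 2, of which 202 (56.7%) had it in both. H3K27ac was listed at 174 and 169 of them and at 164 (46.1%) in both, and CTCF at 60 and 71 and at 59 (16.6%) in both. The same count for 4234 long noncoding RNA genes over 5 kb from a protein-coding TSS gave 16.5% for H3K4me3, 20.6% for H3K27ac and 7.94% for CTCF at their 5′ ends. For 264 microRNA genes, which are as short as tRNA genes but are transcribed by RNA polymerase II from starts farther away, it gave 20.1%, 27.7% and 4.92%. Of all positions on these chromosomes over 5 kb from a protein-coding TSS, 2.81% lay within 1 kb of an H3K4me3 peak in both replicates, 8.32% of an H3K27ac peak and 3.72% of a CTCF peak. At the 5′ ends of all 27629 genes other than tRNA genes, the shares were 55.3% for H3K4me3, 50% for H3K27ac and 15.1% for CTCF. The share of far tRNA genes with H3K4me3 was thus close to that of genes in general and above that of other noncoding genes far from a TSS. No test was made of these differences between sets of genes, and neighbouring tRNA genes share peaks.

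The peaks at far genes were fewer than the genes. The 203 genes of H3K4me3 replicate 1 shared 125 distinct peaks and the 203 of replicate 2 shared 117, while there were 116 and 112 distinct peaks for H3K27ac and 47 and 53 for CTCF. Few of these far peaks extended to the start of another gene. An H3K4me3 peak at a far tRNA gene covered the start of some other gene for 22 genes in replicate 1 and 25 in replicate 2, and the TSS of a protein-coding gene for 2 and 4.

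Near genes had more of each mark, and mostly the peak of the neighbouring promoter. In the 92 near genes, H3K4me3 was listed at 82 in replicate 1, 82 in replicate 2 and 82 (89.1%) in both. H3K27ac was listed at 78 and 74 and at 74 (80.4%) in both, and CTCF at 27 and 29 and at 24 (26.1%) in both. The H3K4me3 peak at the tRNA gene was also the peak at the protein-coding TSS for 65 of 82 genes in replicate 1 and 69 of 82 in replicate 2. For H3K27ac this held for 62 of 78 and 64 of 74, and for CTCF for 20 of 27 and 21 of 29. A mark at a near tRNA gene could therefore seldom be told apart from that of the promoter beside it, and the results that follow are for far genes unless stated.

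**Figure D1:**
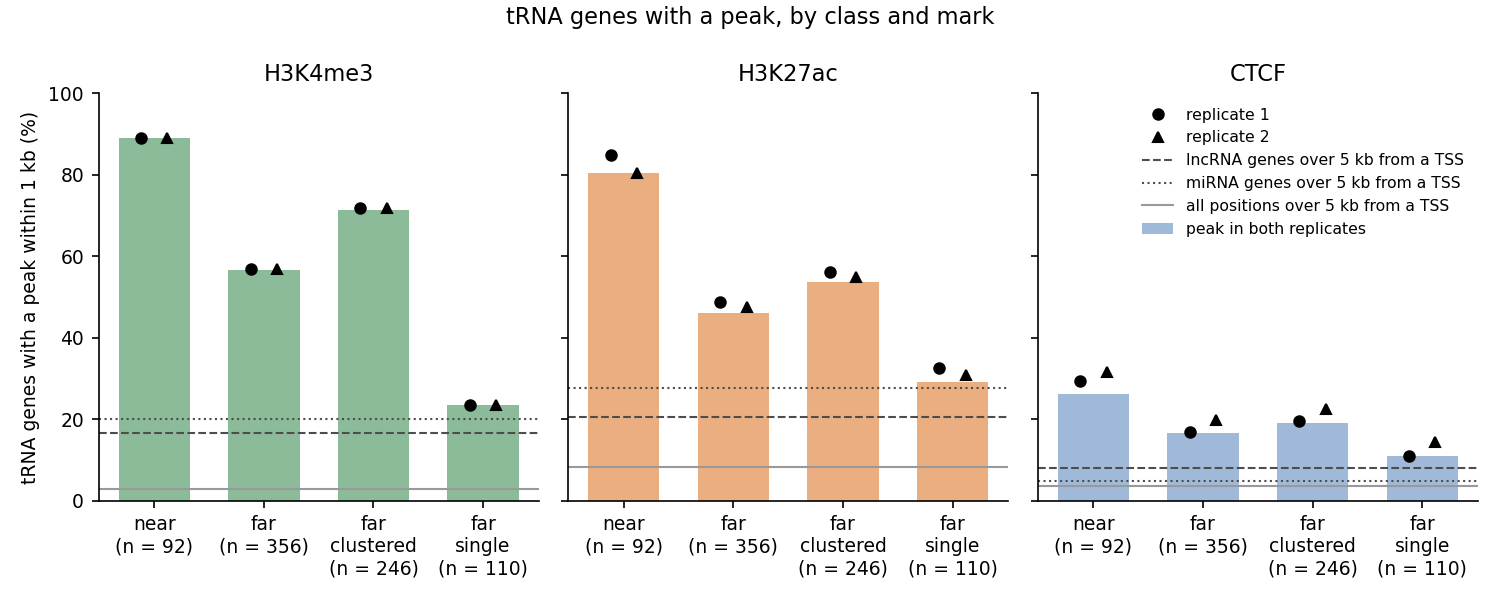
Share of tRNA genes (%) with a peak within 1 kb, for near, far, far clustered and far single genes, in 1 panel per mark. Bars give genes with a peak in both replicates, points each replicate, and lines the share of long noncoding RNA genes, of microRNA genes and of all positions over 5 kb from a protein-coding TSS. For H3K4me3 the bars stand at 89.1%, 56.7%, 71.5% and 23.6%.

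Clustered genes carried the marks more often than single genes. Among the 246 far clustered genes, H3K4me3 was listed at 177 in each replicate and at 176 (71.5%) in both, H3K27ac at 138 and 135 and at 132 (53.7%) in both, and CTCF at 48 and 55 and at 47 (19.1%) in both. Among the 110 far single genes, H3K4me3 was listed at 26 in each replicate and at 26 (23.6%) in both, H3K27ac at 36 and 34 and at 32 (29.1%) in both, and CTCF at 12 and 16 and at 12 (10.9%) in both. The replicates of a mark differed by at most 7 genes within either class. The far single share of H3K4me3 was close to the 20.1% of microRNA genes, and that of H3K27ac to their 27.7%. Near genes showed less of a difference, since 45 of 46 clustered and 37 of 46 single genes had H3K4me3.

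The share was highest close to protein-coding genes. H3K4me3 was found at 135 of 178 far genes (75.8%) at 5 to 20 kb from a protein-coding TSS, at 62 of 154 (40.3%) at 20 to 100 kb, and at 5 of 24 (20.8%) beyond 100 kb, all of the last being single. Within clustered genes it was 90.9% at 5 to 20 kb and 49.1% at 20 to 100 kb, and within single genes 32.6%, 15.0% and, beyond 100 kb, 20.8%. The share was thus higher at 5 to 20 kb in both kinds of gene, and single genes showed no further fall beyond 100 kb. A cluster of 35 genes with 1 marked gene lay whole in the bin of 20 to 100 kb.

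Genes close to the limits of the classes were as follows. The gene just inside 5 kb was a TRNAE-UUC at chr15:31980135-31980206, 4977 bp from the TSS of IMP4, with fold enrichments of 40.5 and 18.9 for H3K4me3 and 23.7 and 30.02 for H3K27ac, and no CTCF peak listed. Just outside was a TRNAK-UUU at chr16:20518683-20518755, 5015 bp from the TSS of DNAJC21, with a single H3K27ac peak of 4.23 in replicate 1. Just inside the 10 kb limit, TRNAI-UAU at chr7:21526391-21526484 had its nearest tRNA gene at 9747 bp and H3K4me3 of 42.5 and 23.7. Just outside was TRNAH-GUG at chr7:21233980-21234051, a near gene, at 13201 bp and with 13.6 and 9.34. The first far gene outside was TRNAV-CAC at chr4:89100157-89100229, at 14486 bp and with 42.1 and 22.9.

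Most marked far genes carried both histone marks. Of the 202 far genes with H3K4me3 in both replicates, 156 (77.2%) also had H3K27ac in both, and of the 164 with H3K27ac, 156 (95.1%) had H3K4me3. The 8 with H3K27ac and no H3K4me3 were all far single genes, and no such gene was found among far clustered or near genes. CTCF was listed at 45 of the 156 genes with both histone marks (28.8%), at 5 of the 46 with H3K4me3 alone, at 0 of the 8 with H3K27ac alone and at 9 of the 146 with neither (6.16%). No peak of any mark in any library was listed at 130 far genes (36.5%).

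The 46 far genes with H3K4me3 and no H3K27ac in both replicates were mostly on chromosome 7. There were 37 on that chromosome, against 59 of the 156 genes with both marks, and 44 of the 46 were clustered. Their H3K4me3 peaks were weaker, with a median fold enrichment of 19.9 in replicate 1 and 18.1 in replicate 2, against 40.4 and 26.3 in the genes with both marks. No H3K27ac peak was listed in either replicate at 37 of them.

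Fold enrichment is the height of a peak over its control as the peak caller gave it, and each gene was given its strongest peak within 1 kb. H3K4me3 at far tRNA genes had a median fold enrichment of 35.6 in replicate 1 and 25.7 in replicate 2, beside 52.0 and 25.2 at protein-coding TSSs with a peak. For H3K27ac the medians were 12.9 and 14.3, beside 16.4 and 19.2, and for CTCF 25 and 24.8, beside 17.2 and 16.8. H3K4me3 was therefore lower at tRNA genes than at protein-coding TSSs in replicate 1 and about level in replicate 2, so that the replicates give no common order. H3K27ac was lower and CTCF higher in both. The H3K4me3 peaks were stronger than the median peak of their library at 93.6% of far genes with a peak in replicate 1 and 94.6% in replicate 2. For CTCF this held at 58.3% and 56.3%. With each CTCF peak at far genes counted once, the medians were 22.3 and 19.4, beside 19.6 and 19.1 for all peaks of the libraries. Over the genes with a peak in both replicates, fold enrichments of the 2 replicates ranked alike with a Spearman's rho of 0.777 for H3K4me3 (202 genes), 0.913 for H3K27ac (164 genes) and 0.949 for CTCF (59 genes), as a description, since these genes shared 122, 103 and 44 pairs of peaks.

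Over all far genes, the histone marks flanked the genes and were denser upstream. An H3K4me3 peak covered the gene itself at 192 of 203 far genes in replicate 1 and 190 of 203 in replicate 2. Summits, the highest points of peaks, were fewer right at the gene than on its flanks. In the 250 bp just downstream of the 5′ end there were 3.65 and 1.97 H3K4me3 summits per 100 genes in the 2 replicates, against 14.6 and 14.6 at 250 to 500 bp upstream and 8.15 and 6.18 at 250 to 500 bp downstream. H3K27ac had the same shape, with 3.37 and 2.25 in the first 250 bp, 9.83 and 11.2 upstream and 7.87 and 6.46 downstream. Within 500 bp on either side, 72 and 68 H3K4me3 summits lay upstream and 42 and 29 downstream. These counts are mostly from clustered genes, and neighbouring genes share peaks. Far single genes had few summits. At 250 to 500 bp upstream, in the first 250 bp and at 250 to 500 bp downstream, they had 8.18, 0.909 and 5.45 for H3K4me3 in replicate 1. In replicate 2 they had 3.64, 1.82 and 0.909, with no rise downstream.

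CTCF summits were fewer. Within 500 bp they were most frequent in the 250 bp just upstream of the 5′ end, with 3.09 and 3.65 per 100 genes. A CTCF peak covered the gene itself at 25 of 60 far genes in replicate 1 (41.7%) and 34 of 71 in replicate 2 (47.9%). Within 500 bp of the 5′ end the density of CTCF summits was 7.58 and 8.99 per 100 genes and kb, against 3.93 and 4.14 at 3 to 5 kb. For H3K4me3 the same densities were 32.0 and 27.2 near the gene against 7.79 and 6.81 farther out.

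**Figure D2:**
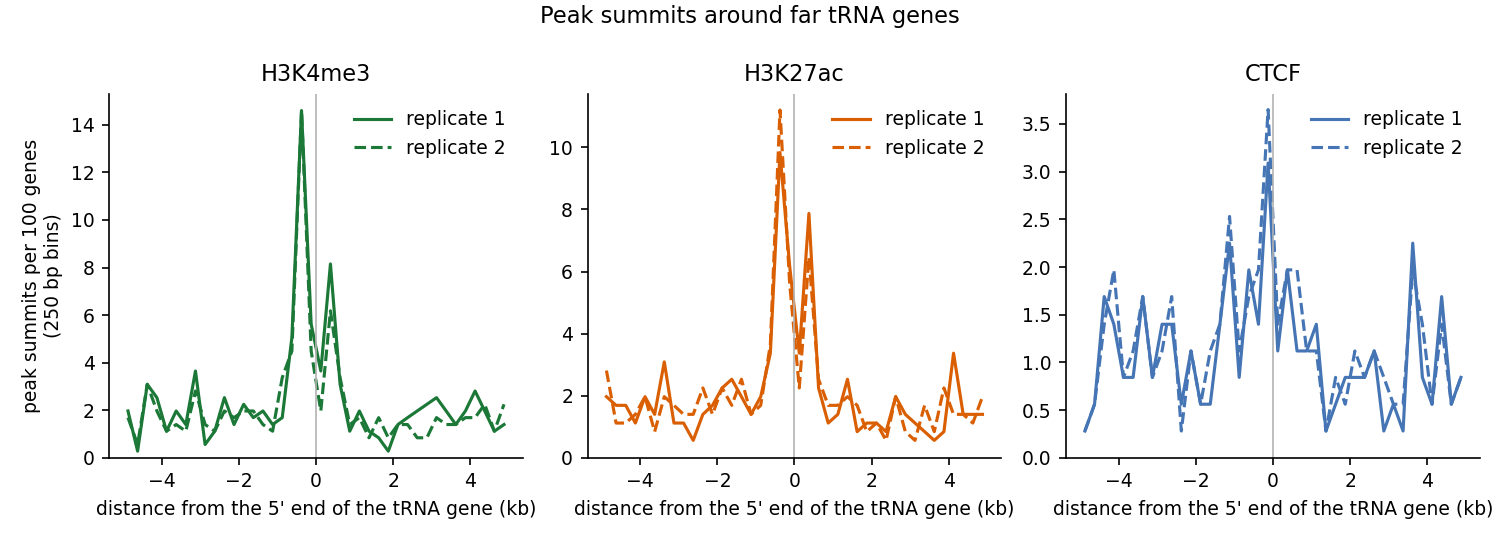
Peak summits per 100 far tRNA genes in 250 bp bins, against the distance from the 5′ end in kb, with negative values upstream in the direction of transcription, in 1 panel per mark and 1 line per replicate. Vertical scales differ between panels. H3K4me3 and H3K27ac rise on both sides of the gene and dip at it, with 14.6 H3K4me3 summits per 100 genes at 250 to 500 bp upstream in each replicate.

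The strongest H3K4me3 at far genes was at a group of 3 tRNA genes on chromosome 4 in reach of 1 peak. They were TRNAD-GUC at chr4:88964920-88964991, TRNAG-UCC at chr4:88965885-88965956 and TRNAL-CAG at chr4:88966627-88966709, which decode aspartate, glycine and leucine codons, 6400 to 8118 bp from HSPA6, a heat shock protein gene. The first pair lay between genes, and TRNAL-CAG in an intron of a gene that is not protein-coding. H3K4me3 reached 81.2 and 58.7 in the 2 replicates and H3K27ac 35.4 and 38.9, and no CTCF peak was listed. The next was TRNAV-AAC, a valine tRNA gene in an intron annotated for VEGFA, the vascular growth factor gene, at chr7:38753136-38753208, with H3K4me3 of 91.5 and 34.9. Its H3K4me3 summits lay 6354 and 4876 bp downstream of the 5′ end of the tRNA gene, nearer to the VEGFA promoter, and its sequence had the A form of the B box.

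The others of the highest 5 were a proline and a lysine gene on chromosome 3, a pair of lysine genes on chromosome 9 and a leucine gene on chromosome 7. H3K4me3 was 85.5 and 28.2 at TRNAP-UGG (chr3:39056996-39057067) and TRNAK-CUU (chr3:39058092-39058164), which share the peak. It was 48.2 and 55.1 at the TRNAK-UUU pair (chr9:65164229-65164301 and chr9:65164599-65164671), and 61.4 and 41.6 at TRNAL-CAG (chr7:20989482-20989564). At each of these loci, summits in both replicates were within 1 kb of a tRNA gene, which was not so at the VEGFA intron.

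For H3K27ac, the first locus was TRNAE-CUC, a glutamate gene at chr1:37203658-37203729, 8945 bp from NCOA7, with 52.3 and 51.2, and with H3K4me3 of 50.9 and 25.4. TRNAE-UUC in an intron of TIMP2 (chr12:3280569-3280640) had 39 and 50.9. TRNAD-GUC in an intron of KMT2E (chr9:104918063-104918135) had 49.3 and 30.8. At both of these the H3K27ac summits lay 1509 to 8700 bp from the tRNA gene in both replicates, in broad peaks that covered the gene or ended within 1 kb of it, whereas at TRNAE-CUC they lay 383 and 372 bp upstream. The group near HSPA6 was also among the highest 5.

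For CTCF, TRNAL-UAG, a leucine gene 5269 bp from EEF2K (chr3:23985500-23985581), had fold enrichments of 57.3 and 71.7, with summits 321 and 316 bp upstream. The TRNAK-UUU pair on chromosome 9 had 48.5 and 60.5, and TRNAV-UAC, TRNAR-UCU and TRNAL-UAA on chromosome 2 (from chr2:11929689-11929771 to chr2:11930457-11930529) shared a peak of 49.4 and 54.2. TRNAV-AAC (chr7:21547984-21548056) had 42.1 and 56.7 and TRNAS-GCU (chr7:21207049-21207130) 38.8 and 57.6. H3K4me3 was listed in both replicates at every one of these genes, with 21.6 and 15.7 at TRNAS-GCU, the lowest, and 59.7 and 39.2 at TRNAV-AAC.

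The genes fell into 54 clusters of 2 or more, with 292 genes in all. In 38 clusters every gene had H3K4me3 in both replicates, in 4 no gene had it, and 12 held both kinds. H3K4me3 was found at 23 of 25 far genes in clusters of 2. It was found at 43 of 60 in clusters of 3 to 5, 44 of 46 in clusters of 6 to 10, and 66 of 115 in clusters of over 10 genes, so that the largest clusters stood below those of 6 to 10.

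The largest cluster was almost without peaks. It held 35 genes over 75.4 kb at chr4:89010243-89085671, in 7 units of 5 genes each (TRNAG-GCC, TRNAL-CAG, TRNAD-GUC, TRNAG-UCC and TRNAE-CUC), which repeat every 11901 to 12181 bp. The first TRNAG-GCC had H3K4me3 of 7.92 and 3.45, and no H3K4me3 was listed at the other 34 genes in either library. No H3K27ac or CTCF peak was listed at any of the 35. The sequence within 1 kb of these genes is highly repeated in the assembly. Of the 100-base stretches there, a median of 4.16% per gene (0% to 47.3%) occurred once in Sscrofa11.1, and the median stretch occurred 7 times. The authors kept reads that mapped to 1 place, so reads from such sequence could be lost, and the part of this in the missing peaks was not tested.

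The next clusters by size were marked throughout, in sequence found once. The second, 21 genes of 9 anticodons over 85.3 kb at chr7:21441201-21526484, had H3K4me3 in both replicates at 20 genes, from 5.57 and 6.95 at a TRNAS-UGA to 46.2 and 37.9 at a TRNAS-AGA and a TRNAD-GUC that share a peak. The remaining gene, a TRNAS-AGA, had a peak of 2.47 in replicate 2 alone. H3K27ac was listed in both replicates at 11 of the 21 and CTCF at 3, and H3K4me3 came as 16 separate peaks in each replicate. The smaller one, 17 lysine, proline and arginine genes over 39.7 kb at chr3:39026853-39066592, had H3K4me3 at 17, H3K27ac at 16 and CTCF at 2, in 9 and 8 H3K4me3 peaks.

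**Figure D3:**
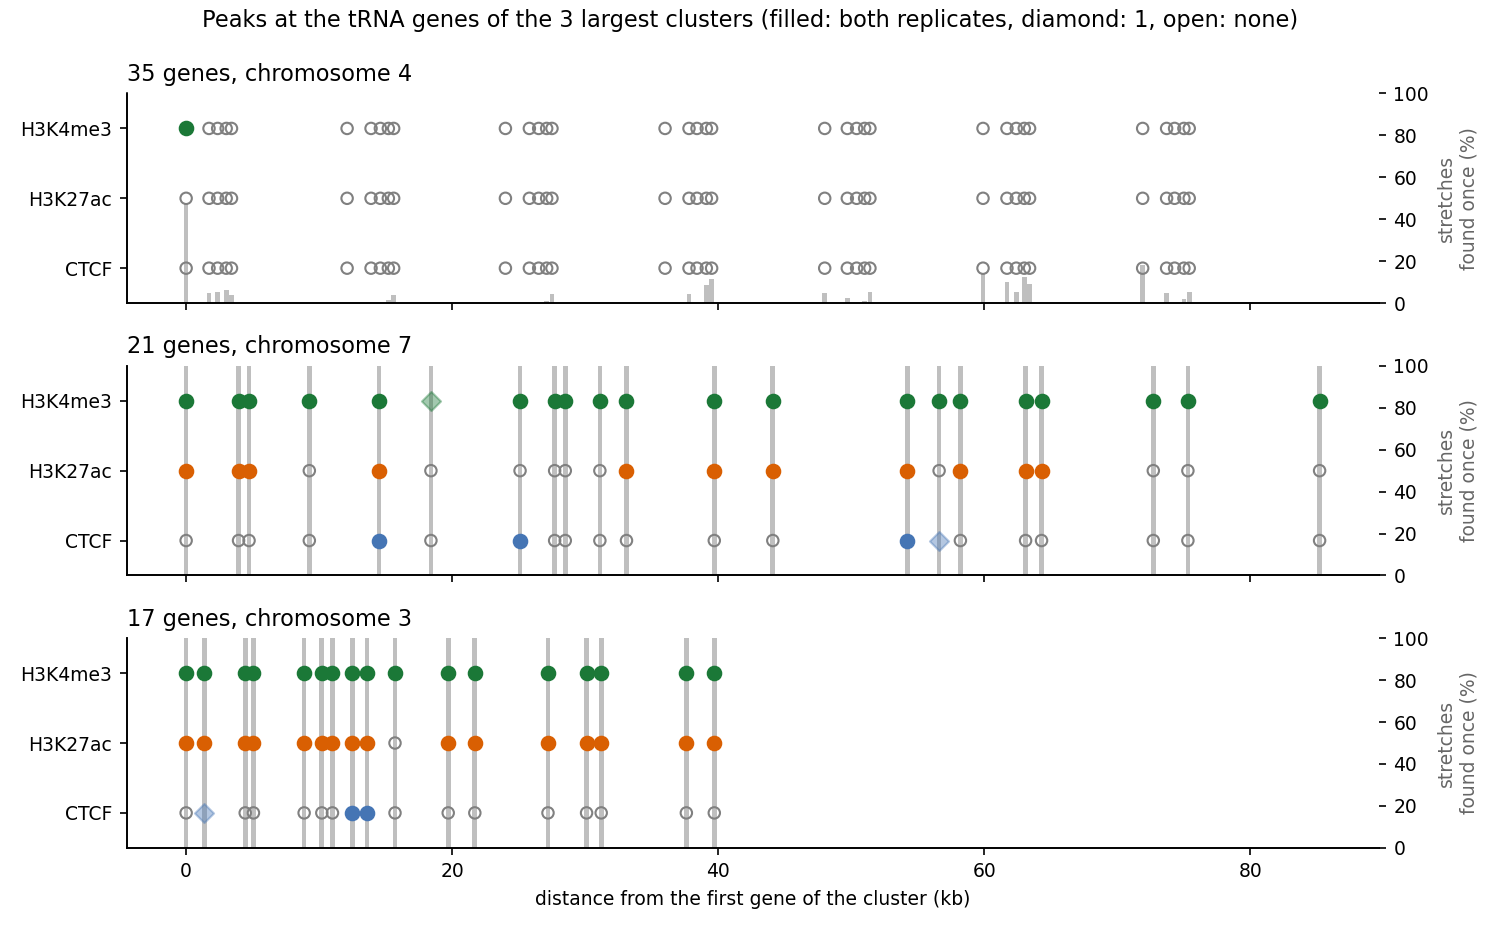
tRNA genes of the 3 clusters with most genes, placed by their distance in kb from the first gene. Filled circles mark a peak within 1 kb in both replicates, diamonds in 1 and open circles in none, and grey bars give the share (%) of 100-base stretches within 1 kb of the gene that occur once in the assembly. The 35-gene cluster has 1 filled circle in all and bars of at most 47.3%, while the bars of the other clusters stand at 100%.

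Most clustered genes without H3K4me3 lay in repeated sequence. Of the 448 genes, 57 had fewer than 50% of the 100-base stretches within 1 kb occurring once, and 55 of these were on chromosomes 4 and 7. Among the far clustered genes, 48 of the 68 without H3K4me3 in either replicate were of this kind. With the other far clustered genes alone, 171 of 193 (88.6%) had H3K4me3, 132 (68.4%) H3K27ac and 47 (24.4%) CTCF. The 53 far clustered genes in repeated sequence had H3K4me3 at 5, and H3K27ac and CTCF at 0. Far single genes were almost all in sequence found once (109 of 110), so that their H3K4me3 share was 23.9% in this count. In a cluster of 16 genes at chr7:21296494-21329895, H3K4me3 was found at 4 genes. Of the 12 without it, 10 had 15.1% to 25.9% of stretches occurring once, and 2 had 98.0% and 100%. Of the 4 with H3K4me3, 2 TRNAM-CAU genes had 3.09%.

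A single family made up most of the remainder. In sequence found mostly once, 20 far clustered genes had no H3K4me3 peak in any library, and of these 12 were TRNAC-GCA, the cysteine tRNA, 11 of them on chromosome 18. The 12 TRNAC-GCA genes of that chromosome stood in 4 clusters over 159 kb (chr18:55573109-55731650), and at least 94.8% of the stretches around each occurred once. H3K4me3 was found at 1 of them, the gene at chr18:55724072-55724143, with 16.7 and 10.5, together with CTCF of 38.6 and 41.1. CTCF alone was found at chr18:55573109-55573180, with 26.4 and 36.3, and no H3K27ac peak was listed at any. Elsewhere, 4 TRNAC-GCA genes on chromosome 12 near PLXDC1 and LASP1 had H3K4me3 from 58.3 and 28.3 to 65 and 37.6, all within 5 kb of a protein-coding TSS. Of the cysteine genes printed above, the unmarked one differed from the marked gene on chromosome 12 at 1 base and from the marked gene on chromosome 18 at 3.

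Genes of the same sequence differed in their marks. Among the identical sets, 14 held far genes with H3K4me3 in both replicates and far genes with none, 85 far genes in all. Of these, 38 had H3K4me3 in both and 46 in neither. Repeated surroundings were seen at 42 of the 46 without H3K4me3, 33 of which were in the 35-gene cluster, and at 1 of the 38 with it. The 4 others were a TRNAM-CAU (chr3:28290820-28290891), a TRNAS-AGA (chr3:48858533-48858614), a TRNAA-UGC (chr7:22436779-22436850) and the TRNAK-UUU at chr16:20518683-20518755, of which 3 were single genes.

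The largest such sets by number of far genes were of TRNAD-GUC, TRNAE-CUC, and, with 9 far genes each, TRNAG-UCC and TRNAI-AAU. Of 11 far TRNAD-GUC genes of the sequence printed above, 5 had H3K4me3, from 12.4 and 12.5 at chr7:21499423-21499494 to 81.2 and 58.7 in the group near HSPA6, and the 6 others were in the 35-gene cluster. Of 10 far TRNAE-CUC genes, 3 had it, with 50.9 and 25.4 on chromosome 1, 29.4 and 22.6 on chromosome 2 (chr2:52271582-52271653) and 45.0 and 25.2 on chromosome 4 (chr4:99318447-99318518). Of 9 far TRNAG-UCC genes, 2 had it, the one near HSPA6 and one at chr4:99316367-99316438 with 45.0 and 25.2. The unmarked copies of these 3 sets were those of the cluster, where the 500 bp on either side were 72.3% to 79.7% G and C, against 34.5% to 46.1% at the marked copies. Of 9 far TRNAI-AAU genes, all on chromosome 7, 5 had H3K4me3, from 9.29 and 9.45 at chr7:21270136-21270209 to 66.1 and 36 at chr7:21296494-21296567. The 4 without it were in the cluster of 16 genes, where 15.1% to 24.3% of the stretches around them occurred once, against 100% at the marked copies.

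Every amino acid had marked genes. The 448 genes had 47 anticodons, and 45 of these anticodon families held a far gene with H3K4me3. All 20 amino acids had one. Of the 28 families with 5 or more far genes, 6 had H3K4me3 in both replicates at every far gene, namely TRNAK-CUU (11 genes), TRNAV-AAC (9), TRNAP-AGG (7), TRNAR-CCU (6), TRNAQ-CUG (5) and TRNAS-GCU (5). By amino acid, H3K4me3 was listed at 14 of 14 far proline genes, 8 of 8 glutamine, 18 of 20 arginine and 17 of 19 serine genes. It was listed at 8 of 58 glutamate, 1 of 16 cysteine and 7 of 23 aspartate genes. These shares include the 35-gene cluster in repeated sequence, which had H3K4me3 at 1 gene. It holds 7 genes each of TRNAD-GUC, TRNAE-CUC, TRNAG-GCC, TRNAG-UCC and TRNAL-CAG, and no cysteine gene.

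Methionine genes had H3K4me3 more often than H3K27ac. In both replicates, H3K4me3 was found at 13 of 14 far TRNAM-CAU genes and H3K27ac at 4, and H3K27ac was listed in at least 1 replicate at 8. This anticodon serves both the initiator tRNA, which starts proteins, and the elongator tRNA. Of 8 far genes at least 98.6% identical to the initiator sequence printed above, 7 had H3K4me3 and 3 H3K27ac in both replicates, and of the 6 others 6 and 1. Neither form of the B box core occurred in the 11 initiator genes, near ones included, of which 10 had H3K4me3, and all 7 others had one. Both searched forms fix a T after the opening G, where the printed initiator sequence reads GATCGAAAC. The missing match therefore does not show that these genes lack a B box. The highest of the initiator genes far from a TSS was at chr7:21639917-21639988, with H3K4me3 of 51.1 and 29.0. The gap between the marks was not particular to methionine. Far serine genes had H3K4me3 at 17 and H3K27ac at 9, and isoleucine genes at 10 and 5. Lysine genes had 18 and 18, and glutamate genes 8 and 13. The 13 clustered TRNAM-CAU genes, near ones included, were all on chromosome 7. There, 96 of 121 far genes had H3K4me3 and 59 H3K27ac, so that family and chromosome were not separated.

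**Figure D4:**
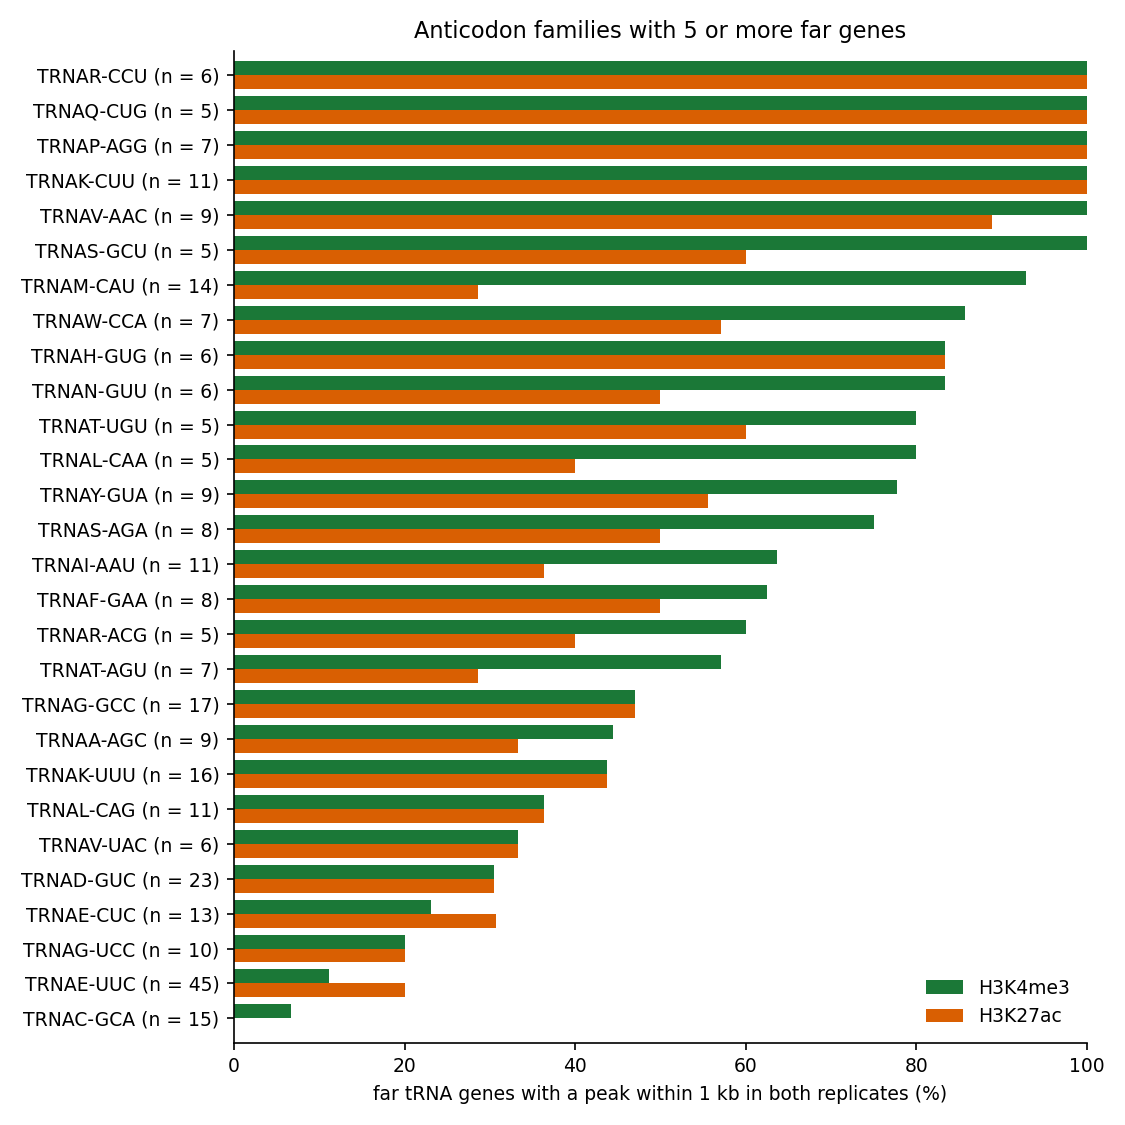
Share (%) of far genes with H3K4me3 and with H3K27ac within 1 kb in both replicates, for the 28 anticodon families with 5 or more far genes. Genes in repeated sequence are included. Bars run from 100% for H3K4me3 in 6 families down to 6.67% in TRNAC-GCA (15 far genes), and TRNAM-CAU shows the widest gap between the marks among families with over 90% for H3K4me3.

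The glutamate gene TRNAE-UUC was the largest family and mostly unmarked. It had 53 genes with 51 distinct sequences, and of its 45 far genes 5 had H3K4me3 in both replicates, 9 H3K27ac and 1 CTCF. Of these, 43 were single and lay on 19 chromosomes, 27 of them in introns of protein-coding genes, and 12 had a peak of any mark in any library. At the 5 with H3K4me3, values in the 2 replicates ran from 13.7 and 8.76 in the TIMP2 intron to 67.6 and 34.8 at chr4:99278570-99278641. The 40 far genes with no H3K4me3 were like each other, with a median identity of 86.1% over their 780 pairs (75% to 97.2%). No sequence of the family was held by more than 2 genes, and there were 2 such sequences, 97.2% identical to each other, one of them that of chr1:141310254-141310325. The median identity of the 40 genes to either was 72.2%. The G form of the B box occurred in 6 of them and the A form in 31, and a terminator in 1 of 40, against 3, 1 and 3 of the 5 marked genes.

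Sequences like these also occurred under other anticodons. Of the 44 far single genes of other families without H3K4me3, 14 (31.8%) were at least 80% identical to 1 of the 40, in the families TRNAD-GUC, TRNAE-CUC, TRNAK-UUU and TRNAN-AUU. This held for 2 of 23 far single genes with H3K4me3 and for 9 of 244 far clustered genes, all TRNAE-CUC.

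Of the 8 far single genes with H3K27ac and no H3K4me3, 5 were TRNAE-UUC. They were 9.52% of the 84 far single genes without H3K4me3, close to the 8.32% of all far positions. The H3K27ac summits lay between 1108 and 11631 bp from the 5′ end of the gene in each replicate, except at the gene on chromosome 11, with 1425 and 822 bp upstream. TRNAE-UUC at chr6:70669626-70669697, between genes and nearest to PGD, had H3K27ac of 35.3 and 30.8, and TRNAE-UUC in an intron of RBKS (chr3:111414025-111414096) 26.6 and 30.3. TRNAE-UUC genes near DUSP1 (chr16:51476580-51476651) and in an intron of DMD, the dystrophin gene (chrX:27036374-27036445), had 11.3 and 12, and 11.9 and 7.97. In introns, TRNAG-GCC in RFFL (chr12:40107610-40107680) had 10.2 and 9.96, TRNAK-UUU in ZMIZ1 (chr14:81601031-81601102) had 8.55 and 7.72, and TRNAE-CUC in DCP2 (chr2:116792305-116792376) had 3.83 and 3.41. TRNAE-UUC at chr11:24651269-24651340, whose nearest protein-coding gene is AKAP11, had 2.92 and 4.77. None of the 8 had a CTCF peak listed.

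The B box core in its G form, GTTCGANNC, was found in 274 of 448 tRNA genes (61.2%), and in 1.23% of 896 windows of the same lengths placed 2 kb on either side. The A form, GTTCAANNC, was found in 143 genes (31.9%), and in 0.562% of the 712 such windows of far genes, where the G form had 1.54%. Among far genes with H3K4me3 in both replicates 69.3% had the G form and 23.8% the A form, and among those with it in neither 46.1% and 47.4%. One form or the other was found at 93.1% and 93.4% of these groups, so that the groups differed in which form they had and not in the share with a core. The forms differed among single genes and, outside repeated sequence, among clustered ones. Of 35 far single genes with the G form 18 (51.4%) had H3K4me3, and of 63 with the A form 6 (9.52%). Of the 57 far single genes with the A form and no H3K4me3, 31 were TRNAE-UUC. Form and family were thus not separated among single genes. In clusters, leaving out repeated surroundings, the shares were 119 of 126 (94.4%) and 42 of 57 (73.7%). The difference in clusters came mostly from 1 family, TRNAC-GCA. The A form was found in 15 far clustered genes without H3K4me3. Of the 14 far TRNAC-GCA genes without H3K4me3, 13 had the A form and 12 were clustered. With all far clustered genes the order turned, with 122 of 177 (68.9%) for the G form and 42 of 57 for the A form. A match says only that these letters stand in the gene.

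A run of TTTT within 40 bp downstream, the kind of signal at which RNA polymerase III stops, was found at 75% of tRNA genes and at 22.2% of the windows at 2 kb. It was present at 185 of 202 far genes with H3K4me3 (91.6%) and at 72 of 152 with none (47.4%). Among far single genes, 21 of 38 with the run had H3K4me3 (55.3%), and 5 of 72 without it (6.94%). Of the 84 far single genes with no H3K4me3, 17 had the run. TRNAE-UUC made up 40 of these 84 and had the run at 1, so that run and family were not separated. Introns of tRNA genes went with H3K4me3 as well. H3K4me3 was found at 26 of the 28 tRNA genes with an intron, near ones included, against 63.4% of all tRNA genes. Of the 18 far genes with an intron 17 had it, against 56.7% of all far genes.

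Base composition around the gene differed between the groups, in opposite directions for single and clustered genes. In far single genes, the 500 bp on either side had a median of 54.4% G and C with H3K4me3 and 41.6% without, and a ratio of observed to expected CpG of 0.715 and 0.262. In far clustered genes, the medians were 44.7% with and 62.5% without, where the latter include the 35-gene cluster.

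Outside repeated sequence, genes most like their family carried the marks most often. Identity was taken to the commonest sequence of the same anticodon where at least 2 genes shared it, in far genes with sequence around them found mostly once. H3K4me3 was found at 133 of 147 genes (90.5%) with an identity of 97% or more, at 21 of 42 (50%) from 90% to under 97%, at 6 of 12 (50%) from 80%, at 6 of 44 (13.6%) from 70%, and at 8 of 28 (28.6%) below that. H3K27ac ran from 76.2% in the first group to 15.9% in the fourth and CTCF from 26.5% to 4.55%. The group from 70% was mostly 1 family, since 35 of its 44 genes were TRNAE-UUC, which are measured against a sequence of 2 genes and are more like each other. Of the 9 others in it, 3 had H3K4me3 (33.3%). The lowest group holds 9 TRNAE-UUC genes and families with more than 1 kind of sequence, such as the elongator methionine genes at 52.1% to 57.5%.

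**Figure D5:**
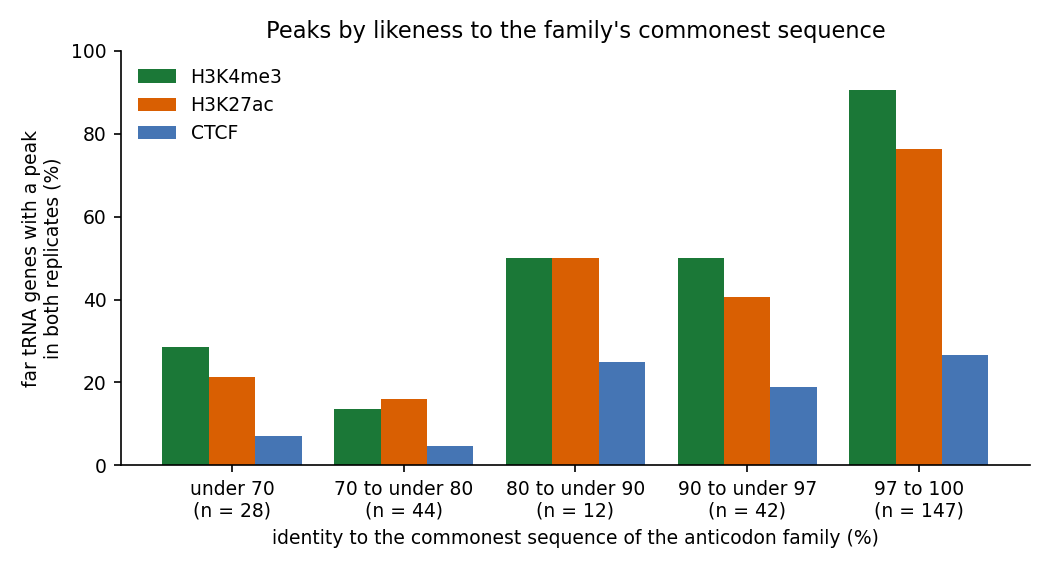
Share (%) of far tRNA genes with a peak within 1 kb in both replicates, by identity (%) to the commonest sequence of the anticodon family, for H3K4me3, H3K27ac and CTCF, with the number of genes under each group. Genes in repeated sequence are left out, as are families whose commonest sequence is held by 1 gene. H3K4me3 stands at 90.5% in the 147 genes with 97% identity or more and at 13.6% in the 44 genes from 70% to under 80%.

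Place in the genome differed too. Among far single genes, H3K4me3 was found at 18 of 56 genes between other genes (32.1%) and at 4 of 46 in introns of protein-coding genes (8.70%), and H3K27ac at 19 and 9 of these. Of the 46, 27 were TRNAE-UUC, a family with H3K4me3 at 3 of its 43 far single genes, so that place and family were not separated here. Among far clustered genes few lay in such introns, and 5 of 6 there had H3K4me3, against 149 of 215 between genes (69.3%).

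The genes that make and use tRNA carried the promoter marks. All 18 listed genes of RNA polymerase III subunits had H3K4me3 and H3K27ac at the TSS in both replicates, and 4 had CTCF. Of 15 genes for its factors found in the annotation, 14 had both histone marks. The exception was GTF3A, which codes for TFIIIA, a factor used for 5S ribosomal RNA genes, with no peak listed. Of 15 genes for tRNA processing and export, 13 had H3K4me3 and 12 H3K27ac, with no peak listed at RPP40, a part of RNase P, or at TRNT1, which adds the CCA end. All 20 cytosolic aminoacyl-tRNA synthetases listed, which charge tRNAs with amino acids, had both marks, and 3 had CTCF. These counts stand beside 55.3% for H3K4me3 and 50% for H3K27ac over the 5′ ends of all other genes. At the TSSs of protein-coding genes alone, the shares were 69.6% in each replicate for H3K4me3, and 61.3% and 62.7% for H3K27ac.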

How the data were processed

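H3K4me3, H3K27ac and CTCF were each profiled by ChIP-seq in 2 libraries of pig embryonic fibroblasts, and 2 input libraries have no file here. Per the paper's methods, the authors aligned reads to Sscrofa11.1 with Bowtie2 and discarded duplicates and fragments without a unique place. They called peaks in each library with MACS2 at a q-value of 0.01, with versions of these tools not given in the sources used here. The authors also merged replicate peaks at an irreproducible discovery rate of 0.01. That step was not repeated here, where a peak within 1 kb in each replicate was asked for instead. The deposited lists give for each peak a score, the fold enrichment, the −log10 p-value and the −log10 q-value, all as written by the peak caller for the authors. Between 0.0560% and 3.06% of peaks in a list have a q-value above 0.01, and all peaks were used. Read counts were not used here, so depth was not taken into account and no interval is given.

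Genes, TSSs and sequences came from RefSeq on Sscrofa11.1, and peaks were counted on chromosomes 1 to 18 and X. A further 84 tRNA genes on other sequences were not analysed here. Distances were measured from the edges of the gene to the nearest edge of the peak. A gene was counted when a peak lay within 1 kb in both replicates, and it was given its strongest peak. Named were for each mark the 5 far loci strongest by mean fold enrichment, the 3 clusters with most genes, the anticodon families with 5 or more genes, the 3 identical sets with most far genes of mixed marks and the set tied with the last, and the genes next to each limit. An H3K27ac locus and a sequence that this rule names are not reported here. Other named genes (cysteine, methionine and glutamate genes, the cluster of 16 genes, and those with H3K27ac alone) were chosen after their values were seen. Members and lists were chosen with earlier results of these data known. No test was planned or made, since the comparisons are between sets of genes in the same libraries and neighbouring genes share peaks. Identity is 100% less the edit distance over the longer length (edlib 1.3.9.post1). A 100-base stretch was counted once if it occurs at 1 place on both strands of the assembly. BRF1 and SNAPC4 were listed among polymerase III factors and not found in the annotation by these names. Counting steps were tested on simulated data. Python 3.11.15, numpy 2.4.6, pandas 2.3.3, scipy 1.17.1, matplotlib 3.10.9 and samtools 1.23.1 were used.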

Additional observations from a re-analysis of the deposited data

How the results depend on the processing

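Counts of genes with a peak were recomputed 192 times under other settings, 168 planned and 24 chosen after seeing the data (without the 35-gene cluster, and without genes in repeated sequence), and 178 stayed within 1.5 times the reported count. With a TSS limit of 10 kb, which moves genes from far to near, the near counts were 136 for H3K4me3, 124 for H3K27ac and 46 for CTCF, the far count of CTCF was 37, that of far clustered genes with CTCF 29, and that of far single genes with H3K4me3 17. Asking for the summit within 1 kb gave 41 near genes with H3K4me3 and 45 with H3K27ac, 116 far clustered genes with H3K4me3 and 20 far single genes with H3K27ac. Asking for a CTCF peak over the gene itself gave 25 far, 8 near and 16 far clustered genes, and within 500 bp it gave 30 far clustered genes. The share of near genes was above that of far genes for each mark in every setting. With the summit within 1 kb this difference was small for H3K4me3, with 44.6% of near and 38.2% of far genes (136 of 356). Far clustered genes then stood at 47.2%, above near genes. The share of clustered genes was above that of single genes in every setting but CTCF over the gene itself, with 6.50% against 8.18%.

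With 1 replicate left out, H3K4me3 was found at 203 far, 82 near, 177 far clustered and 26 far single genes whichever was kept. The ranges were 169 to 174, 74 to 78, 135 to 138 and 34 to 36 for H3K27ac, and 60 to 71, 27 to 29, 48 to 55 and 12 to 16 for CTCF. No paired analysis was possible because sets of genes were compared within the same libraries, and replicate numbers pair no groups of samples in them. Peak lists hold no depth, so a gene without a listed peak may still carry a mark below the limit of the caller, and reads from repeated sequence cannot be counted from these files.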
